A study of Tursiops truncatus with 17 samples.

Results

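Numbered zinc finger genes are those whose symbol is ZNF followed by a number. They were taken here as protein-coding rows with such a symbol in either of the 2 name columns of the files and a mean value over the 17 libraries of at least 1. The members were thus chosen by name and by their mean level over the 17 libraries. The choice was made with earlier results of these data known, among them the difference of ZNF235, although the rule itself does not use the season. That rule gave 271 genes of the 21265 in the files, out of 276 numbered zinc finger genes before the rule on the mean. The lowest means inside the rule were 1.11 for ZNF750 and 1.20 for ZNF891, and the highest outside it were 0.623 for ZNF589 and 0.558 for ZNF530. ZNF235 stands in the name of the set because its difference between the seasons was known when the set was chosen. Its difference is therefore a description here, supports nothing and is given no p. The main limma and edgeR counts of genes past a threshold are given with and without it.

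Most numbered zinc finger genes encode C2H2 proteins, in which a chain of fingers, each holding a zinc ion between cysteines and histidines, reads DNA. Many of them carry a KRAB domain, which recruits the corepressor KAP1 (TRIM28) and with it enzymes that methylate histone H3 and silence transposable elements and other targets. Others carry a SCAN domain, which pairs proteins with each other, or act outside DNA binding on RNA, ribosomes or the spindle. KRAB zinc finger genes lie in clusters of related copies that arose by duplication, and many are transcribed at low levels in brain.

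The libraries held messenger RNA of frozen archived necropsy cerebral cortex from wild-type common bottlenose dolphins (Tursiops truncatus), with 1 library per dolphin. Non-bloom season samples came from 8 dolphins and bloom season samples from 9, numbered here within each season in order of deposition. No treatment was given; season of collection is what the labels vary, and they state no age, sex, date or batch, so season and any batch that followed it cannot be told apart. The question is which of these genes differed between the seasons. Values are CPM (read counts relative to library size) with TMM scaling (trimmed mean of M), as deposited, and they are not corrected for transcript length. Levels of different genes are therefore not compared here. In bulk tissue, fewer cells of a type and less RNA per cell cannot be told apart.

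Depth and the makeup of the libraries moved with season. Total reads were 12346713 to 15635292 in non-bloom and 7680050 to 12572653 in bloom libraries. Mitochondrial transcripts took 9.68% to 22.1% of reads in non-bloom and 1.47% to 77.2% in bloom libraries, with the highest shares in bloom 9 (95% exact binomial interval 77.1% to 77.2%, counting error only), bloom 5 and bloom 6. These 3 libraries stood apart, and whether calls hold is also given without them. Summed values of 11 pan-neuronal markers were 9081 to 14736 in non-bloom and 2587 to 10982 in bloom libraries, and those of 8 oligodendrocyte markers 1639 to 7847 and 4241 to 19046. Astrocyte markers summed to 320 to 1800 and 390 to 6839, and interneuron markers to 285 to 716 and 57.7 to 408. All 11 pan-neuronal and all 9 interneuron markers had lower values on average in bloom, and all 8 astrocyte and all 8 oligodendrocyte markers higher ones. By limma 1 of 11, 5 of 9, 0 of 8 and 2 of 8 of these passed. The 7 endothelial and 7 pericyte markers were also higher on average in bloom (1 passed in each list), and 5 microglial and 5 blood markers lower (0 and 2 passed). The part of these shifts in the results below was not tested beyond the covariate fits given there. None of the markers found in the files was at 0 in all libraries, which 1 read in 1 library is enough to meet. Some lists were incomplete or low. Of 9 microglial markers 6 were in the files, and they summed to 1.91 to 276 in non-bloom and 0.336 to 31.3 in bloom libraries.

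Few numbered zinc finger genes passed the threshold between the seasons by limma-trend or edgeR. DESeq2 and limma-voom with quality weights called more, both in the family and over all genes, as given in the last section. All 271 passed the filter on low values and were tested. At an adjusted p under 0.05 (limma-trend on log2(value + 1), adjusted over all 13548 genes tested), 11 were higher in bloom, which is 4.06% of the family against 4.47% of all genes tested. Another 7 were lower, 2.58% against 4.69%. In both directions together 18 passed, 6.64% against 9.16%, so the family's share was near or below that of genes at large. These counts include ZNF235; without it 10 were higher. With edgeR on the recovered reads 14 members passed, 5.17% against 8.63% of all genes. Of these 12 were higher (4.43% against 6.07%; 11 without ZNF235) and 2 lower (0.738% against 2.55%). Upper-quartile scaling gave 13 members, 4.80% against 8.85%. Of these 12 were higher (4.43% against 5.04%) and 1 lower (0.369% against 3.81%).

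The family's log2 differences, bloom minus non-bloom, had a median of 0.058, and 159 were positive and 112 negative. Over all genes tested the median was -0.0034, with 6734 positive and 6814 negative. The differences of the zinc finger genes were small: 43 of 271, or 15.9%, were larger than 0.5 in either direction, against 31.6% of all genes tested. Only ZNF366 was past 1 (0.369% of the family, against 6.38% of all genes). Its values ran from 2.09 to 13.6 in non-bloom and from 0.571 to 60.7 in bloom, and its log2 difference of 1.24 (SE 0.65) did not pass (limma adjusted p = 0.177). The median coefficient of variation over the 17 libraries was 28.8% in the family and 34.6% in all genes tested. The median of the genes' mean deposited values was 10.2 in the family and 20.2 in all genes tested. The log2(value + 1) scale understates changes of low genes, and its part in the shares above was not tested. These medians and shares describe the family, and the difference from other genes was not tested.

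**Figure D1:**
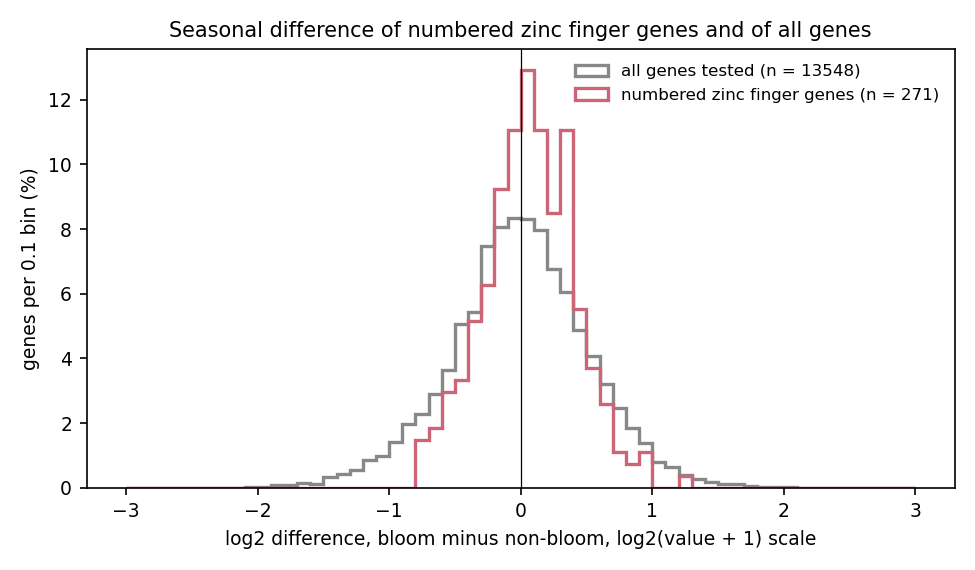
Share of genes (y axis, % per bin of 0.1) by log2 difference between bloom and non-bloom (x axis, log2(value + 1) scale) for 271 numbered zinc finger genes (red) and 13548 genes tested (grey). The zinc finger genes are gathered closer to 0, with 15.9% past 0.5 in either direction against 31.6% of all genes. Their deposited values were lower at the median, and the scale understates changes of low genes.

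Summed over the family, numbered zinc finger genes took 58.9 to 70.7 of every 10000 reads outside the mitochondrial genome in non-bloom libraries (median 65.6). In bloom libraries they took 63.5 to 77.6 (median 70.2). The ranges overlapped, and bloom 5, 6 and 9 lay within the range of the other bloom libraries. The mean log2(value + 1) over the members was 3.49 to 3.70 in non-bloom and 3.61 to 3.89 in bloom dolphins. In bloom 9, where 3 reads correspond to a value of 1.71, ZNF555, ZNF750, ZNF157, ZNF891 and ZNF319 had no reads; no member lacked reads in any other library.

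ZNF235 encodes a C2H2 protein with a KRAB domain. In the 8 non-bloom dolphins its value ran from 13.4 through a median of 14.5 to 15.7, and in the 9 bloom dolphins from 21.0 through 26.6 to 29.3. The groups did not overlap: the lowest bloom library, bloom 4, lay above the highest non-bloom library, non-bloom 6. The means were 14.5 ± 0.779 (SD, n = 8) and 25.3 ± 2.99 (SD, n = 9), a ratio of 1.74, and the log2 difference was 0.75 (SE 0.10). Between 47 and 443 reads per library lay behind these values. The difference ran from 0.73 to 0.78 when each library in turn was left out and was 0.73 without bloom 5, 6 and 9. It was 0.73 with the pan-neuronal marker level in the fit and 0.70 with the oligodendrocyte marker level.

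ZNF235 lies on GeneScaffold_2184 from 12115 to 90297 on the files' coordinates; no source used here names their genome build. The annotated row spans 78.2 kb, where the median over the members is 9.50 kb. Inside it lie 7 rows for 5S ribosomal RNA, each with a mean value of 0.0234 or less. The other protein-coding row of the scaffold, ENSTTRG00000006712, which has no symbol in the files, had 19.7 ± 1.95 in non-bloom against 14.6 ± 3.58 in bloom libraries (log2 difference -0.43, SE 0.14, limma adjusted p = 0.0555). Its difference thus had the opposite sign from that of ZNF235 and did not pass.

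In 4 members every bloom library lay above every non-bloom library: ZNF235, ZNF227, ZNF300 and ZNF699. That is 1.48% of the family with ZNF235 included, against 0.502% of all genes tested. ZNF235 was known to be among them when the set was chosen, and without it ZNF227, ZNF300 and ZNF699 remain. No member had all bloom libraries below all non-bloom libraries (background 0.155%).

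ZNF227, a KRAB zinc finger gene, ran from 26.6 through 32.1 to 44.8 in non-bloom and from 45.8 through 51.4 to 79.4 in bloom. The gap between the groups was narrow, with non-bloom 7 just under bloom 7, and bloom 9 was the highest. The means were 33.3 ± 6.22 and 54.3 ± 10.7, a log2 difference of 0.69 (SE 0.13, limma adjusted p = 0.0160). Of the members called other than ZNF235, it alone passed whichever of the 17 libraries was left out.

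ZNF300, also with a KRAB domain, ran from 12.4 through 15.1 to 18.2 in non-bloom and from 18.7 through 24.1 to 33.0 in bloom. Bloom 3 was the lowest of its group and lay just above non-bloom 4. The log2 difference was 0.63 (SE 0.13, limma adjusted p = 0.0214), and it did not pass without non-bloom 2, 6 or 8.

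ZNF699, a KRAB gene whose fly counterpart hangover acts in ethanol tolerance, ran from 5.01 through 5.85 to 6.37 in non-bloom and from 6.72 through 8.87 to 12.9 in bloom. The non-bloom dolphins lay close together (SD 0.381 around 5.78), and the bloom dolphins were spread more widely (SD 2.00 around 9.25). The log2 difference was 0.58 (SE 0.13, limma adjusted p = 0.0266), and the call was lost without non-bloom 2, 6 or 8.

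**Figure D2:**
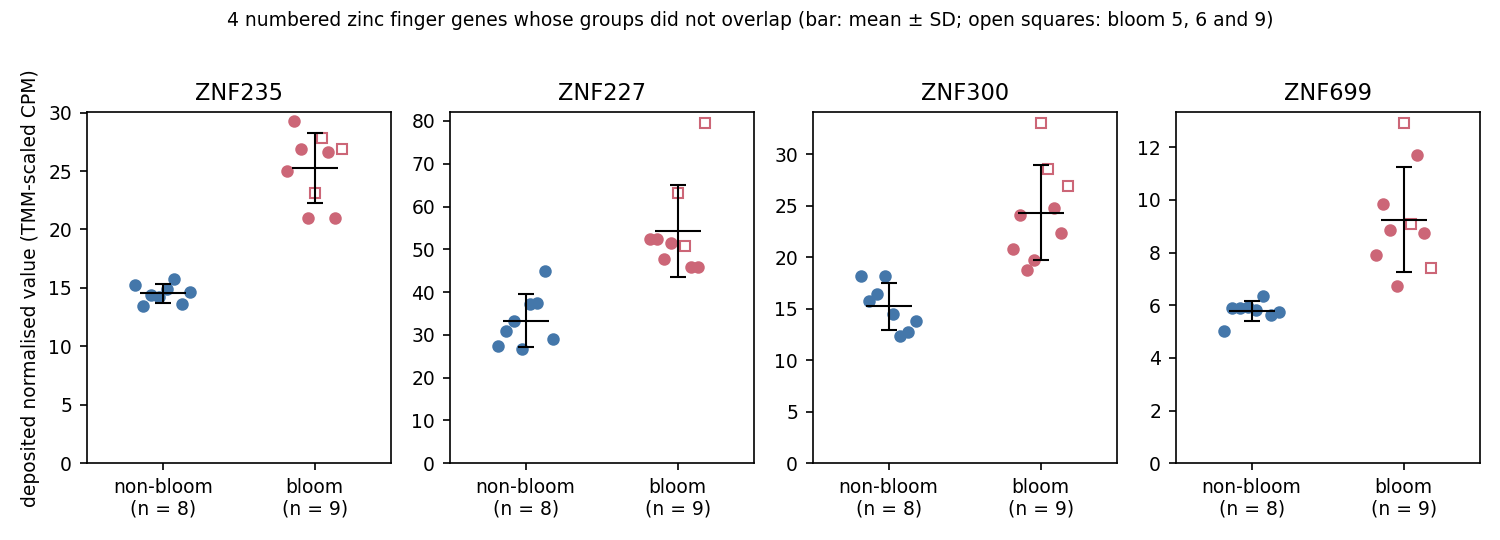
Deposited normalised value (y axis, TMM-scaled CPM, from 0) of ZNF235, ZNF227, ZNF300 and ZNF699 in 8 non-bloom (blue) and 9 bloom (red) dolphins; each point is 1 library, bars are mean ± SD, and open squares are bloom 5, 6 and 9. In each gene all bloom points lie above all non-bloom points, and the gap is wide for ZNF235 (15.7 to 21.0) and narrow for ZNF227 (44.8 to 45.8).

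The other 7 members higher in bloom overlapped between the groups. ZNF333, which carries KRAB domains, ran from 1.99 through 4.72 to 6.11 in non-bloom and from 5.72 through 8.57 to 13.1 in bloom. Of the 9 bloom libraries 7 lay above all non-bloom libraries, and the log2 difference was 0.88 (SE 0.19, limma adjusted p = 0.0238). It was 0.76 without bloom 5, 6 and 9, where it no longer passed (limma adjusted p = 0.0540).

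ZNF532 belongs to a group of proteins that join ZNF592, ZNF687 and the chromatin reader ZMYND8 in 1 complex. Its value ran from 49.7 through 70.1 to 91.8 in non-bloom and from 78.2 through 106.8 to 185 in bloom, with bloom 6 and bloom 5 the highest. The log2 difference of 0.76 (SE 0.18, limma adjusted p = 0.0296) was 0.53 without bloom 5, 6 and 9 (limma adjusted p = 0.0665). Neither partner among the members passed: ZNF592 was at 24.9 ± 4.03 and 26.6 ± 8.56, and ZNF687 at 37.5 ± 6.45 and 37.9 ± 8.21.

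ZNF768, which binds sequences of an old family of interspersed repeats, went from 36.9 ± 6.93 to 64.8 ± 27.8. ZNF395, a factor described in hypoxia and at the huntingtin promoter, went from 9.21 ± 3.49 to 18.8 ± 10.1. Both were highest in bloom 6, and without bloom 5, 6 and 9 their log2 differences shrank from 0.71 to 0.34 and from 0.88 to 0.55, without passing (limma adjusted p = 0.189 and 0.155). ZNF691, ZNF775 and the KRAB gene ZNF2 completed the higher members. They rose by 0.90, 0.60 and 0.59 on the log2 scale and had 0.65, 0.40 and 0.48 without the 3 libraries, where none of them passed.

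The 7 members lower in bloom were ZNF396, ZNF132, ZNF485, ZNF8, ZNF189, ZNF248 and ZNF12. ZNF396, a SCAN domain gene, had the smallest p of these. It ran from 7.51 through 8.83 to 11.3 in non-bloom and from 4.22 through 5.59 to 8.26 in bloom, with 7 of 9 bloom libraries below all non-bloom libraries. The log2 difference was -0.54 (SE 0.14, limma adjusted p = 0.0355) and -0.52 without bloom 5, 6 and 9, where it just missed the threshold (limma adjusted p = 0.0537).

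The other 6 carry KRAB domains. ZNF189 fell by 0.74 on the log2 scale (SE 0.22, limma adjusted p = 0.0474), from 38.1 ± 8.10 to 23.7 ± 9.03, and was lowest in bloom 5. Without bloom 5, 6 and 9 its difference was -0.41 (limma adjusted p = 0.149). ZNF248 went from 46.2 ± 4.71 to 31.5 ± 11.0, and 8 of 9 bloom libraries lay below all non-bloom libraries; bloom 1, at 53.5, did not. ZNF8 went from 12.2 ± 3.54 to 7.26 ± 2.27, ZNF12 from 29.7 ± 5.08 to 19.9 ± 6.59, ZNF485 from 31.6 ± 2.57 to 22.6 ± 6.31 and ZNF132 from 4.90 ± 1.07 to 3.03 ± 1.08. Without bloom 5, 6 and 9 the log2 differences of ZNF248, ZNF8 and ZNF12 went from -0.61, -0.69 and -0.60 to -0.36, -0.45 and -0.36. Of the 7 lower members, edgeR called ZNF396 and ZNF8. Without bloom 5, 6 and 9 limma called 0 members lower (background 0.659%). At an unadjusted p under 0.05 it had 40 members higher and 13 lower there, 19.6% of the family. Over all genes 22.6% had such a p, 11.6% higher and 11.0% lower.

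**Figure D3:**
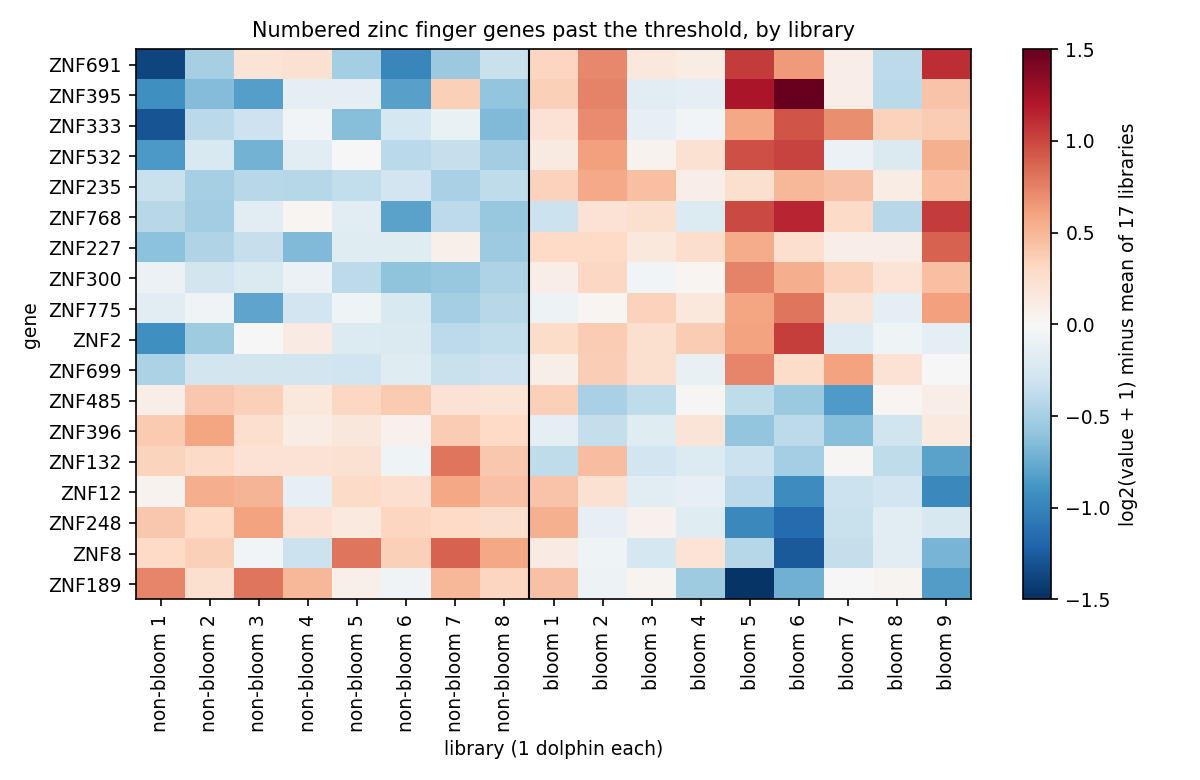
Log2(value + 1) minus the mean of the 17 libraries (colour) for the 18 numbered zinc finger genes past the threshold (rows, ordered by log2 difference) in each library (columns; the line divides 8 non-bloom from 9 bloom). Bloom 5, bloom 6 and bloom 9 show the strongest colours in several genes, such as ZNF768 and ZNF189, while ZNF235 is even across the bloom libraries.

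All 18 called members kept their sign without bloom 5, 6 and 9. In that fit 9 members passed, all higher (3.32% of the family, against 1.68% higher and 2.34% in either direction of 13663 genes tested), and without ZNF235 it was 8. ZNF227, ZNF300 and ZNF699 were the others of the 18 called with all libraries. The remaining 5 were ZNF438, ZNF182, ZNF416, ZNF862 and ZNF154, with log2 differences of 0.51, 0.56, 0.68, 0.89 and 0.56 there. With the summed neuronal markers lower in bloom, the pan-neuronal level was also put in the fit, and 3 of all genes passed. Apart from ZNF235, whose call is no support, 0 members were among them. With that term the differences of ZNF227, ZNF300 and ZNF532 were 0.61, 0.43 and 0.44. With the oligodendrocyte level 0 members and 0 genes passed by limma, and 23 members had an unadjusted p under 0.05, 8.49% of the family against 13.3% of all genes. The differences of ZNF227, ZNF300 and ZNF699 there were 0.61, 0.65 and 0.63.

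In people ZNF235 lies in a cluster of related KRAB genes on the long arm of chromosome 19. Of 19 symbols listed for that cluster, with ZFP112 and ZNF112 both listed for 1 gene, 8 were in the files. All 8 were members, and ZNF283, next to them, was not in the list. The RefSeq gene table of the assembly mTurTru1.mat.Y, used for names and order only, places ZNF283, ZNF45, ZNF234, ZNF233, ZNF235, ZNF285 and ZNF180 in this order, with other genes between some of them. The list was built around ZNF235, so its counts are given without that gene. Of the other 7 genes 1 passed, ZNF227, which is 14.3% against 9.16% of all genes tested. The median log2 difference was 0.11, against -0.0034 over all genes tested. It was 0.13 without bloom 5, 6 and 9, and 0.11 with all libraries and ZNF283 added. With ZNF235 the median was 0.26, and 0.17 without the 3 libraries. The members nearest to ZNF235 in that order differed in sign. ZNF285 had 51.9 ± 6.26 in non-bloom against 34.6 ± 14.3 in bloom libraries (log2 difference -0.70, SE 0.25, limma adjusted p = 0.0672; -0.28 without bloom 5, 6 and 9), and ZNF233 at 5.77 ± 1.37 and 6.32 ± 1.80 (log2 difference 0.099, SE 0.19). ZNF45 and ZNF180 had log2 differences of 0.11 each, with SE 0.14 and 0.12.

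On GeneScaffold_1057 the files place 5 members, ZNF283, ZNF45, ZNF234, ZNF226 and ZNF227, between 331 and 162426. Their log2 differences were -0.012, 0.11, 0.40, 0.69 and 0.69 in that order. ZNF226 and ZNF227 had similar differences with unlike errors. ZNF226 ran from 15.2 to 25.04 in non-bloom and from 16.9 through a median of 20.01 to 121.7 in bloom, with bloom 9 the highest, and its difference (SE 0.34, limma adjusted p = 0.149) was 0.11 without bloom 5, 6 and 9. Copies in such clusters share sequence, and reads that fit several copies may have been dropped by the authors' counting, which was not tested.

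**Figure D4:**
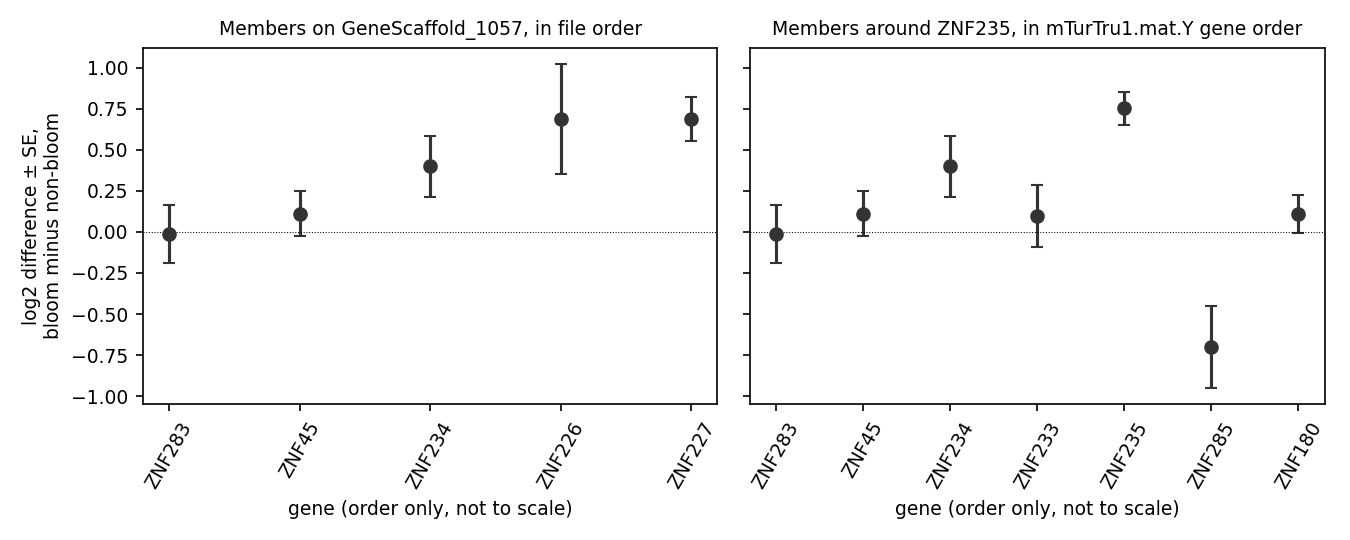
Log2 difference ± SE (y axis, bloom minus non-bloom) of members in their order on GeneScaffold_1057 in the files (left) and around ZNF235 in the RefSeq table of mTurTru1.mat.Y (right); spacing is not to scale. Among the members shown, ZNF235 (0.75) stands between ZNF233 (0.099) and ZNF285 (-0.70), and genes that are not members lie between them.

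Over the whole family, 104 of 271 members shared a scaffold with another member, on 41 of the 208 scaffolds that held any. Among 63 pairs of next members on a scaffold, 34 had differences of the same sign and 29 did not. Both members passed in 0 pairs, and 1 of them passed in 10. The scaffold with the most members, GeneScaffold_2077 with ZNF786, ZNF398, ZNF282, ZNF212, ZNF783 and ZNF777, had log2 differences from -0.24 to 0.19, and none passed.

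A SCAN domain lets zinc finger proteins pair. Of 21 numbered genes listed for it 19 were in the files, and all were members. The list does not hold every such member, and ZKSCAN8 was outside it. Of the 19 listed ZNF396 fell and 0 rose, 5.26% called against 9.16% of all genes tested, and the median log2 difference was 0.085. ZNF165 was at 5.82 ± 3.36 and 9.21 ± 3.17 (log2 difference 0.67, SE 0.26) and ZNF215 at 1.83 ± 0.598 and 2.58 ± 0.674 (0.34, SE 0.16), and neither passed (limma adjusted p = 0.0890 and 0.132).

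Of 11 members listed for roles on RNA, ribosomes or the spindle none passed, and the median was 0.070, or 0.0093 without bloom 5, 6 and 9. edgeR called none either, and at an unadjusted p under 0.05 limma gave 1, ZNF207, 9.09% against 35.4% of all genes tested. This gene, whose product loads a checkpoint protein onto kinetochores, was at 118 ± 6.39 and 99.4 ± 13.0 (log2 difference -0.26, SE 0.10, limma adjusted p = 0.0799). ZNF598, an E3 ligase that marks stalled ribosomes, was among the steadiest members, at 35.9 ± 3.46 and 37.5 ± 4.42. ZNF622, a factor of large ribosomal subunit maturation, was at 33.2 ± 4.72 and 28.1 ± 6.99. ZNF385A, a partner of p53, was at 33.5 ± 6.95 and 49.3 ± 28.3.

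Of 15 members listed for neural or developmental roles none passed by limma or edgeR and the median was -0.12. At an unadjusted p under 0.05 limma had 7 of the 15, 46.7%, against 35.4% of all genes tested and 24.0% of the family. The median was 0.017 without bloom 5, 6 and 9. ZNF148, a Krüppel-like factor that binds GC-rich promoters, was closest, at 49.4 ± 8.70 and 36.4 ± 7.75 (log2 difference -0.44, SE 0.14, limma adjusted p = 0.0509). ZNF804A, a gene tied to schizophrenia risk in people, was at 38.8 ± 6.87 and 25.6 ± 13.1 (-0.74, SE 0.27, adjusted p = 0.0700), and ZNF365 at 58.5 ± 8.65 and 41.6 ± 16.0 (-0.58, SE 0.22, adjusted p = 0.0813). Without the 3 libraries the differences of ZNF804A and ZNF365 were -0.27 and -0.25. ZNF423, a partner of EBF factors in development, ran from 12.1 to 46.6 in non-bloom and from 15.3 to 171 in bloom, highest in bloom 6.

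Of 16 members listed for roles in co-regulator or chromatin complexes 1 rose, ZNF532, and 0 fell, 6.25% called against 9.16% of all genes tested. The median was 0.060, or 0.16 without bloom 5, 6 and 9. ZNF451, a SUMO ligase, was at 16.6 ± 2.53 and 12.2 ± 3.87, and ZNF618, a partner of UHRF2 at hydroxymethylated DNA, at 4.32 ± 1.58 and 7.60 ± 4.85. Their limma adjusted p-values were 0.110 and 0.117.

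The machinery through which KRAB zinc finger proteins silence chromatin was measured by 26 genes, none of them members. Of these 2 rose, HDAC1 and EHMT1, and 0 fell, 7.69% called against 9.16% of all genes tested. The median log2 difference was 0.014 with 13 positive and 13 negative, or 0.063 without bloom 5, 6 and 9. HDAC1, a histone deacetylase of the NuRD complex, went from 9.77 ± 1.67 to 21.7 ± 11.2 (0.95, SE 0.23, limma adjusted p = 0.0308), and EHMT1, a histone H3 lysine methyltransferase, from 24.1 ± 2.78 to 33.7 ± 6.04 (0.45, SE 0.12, limma adjusted p = 0.0371). Without bloom 5, 6 and 9 their differences were 0.62 and 0.42. HDAC1 was at the edge of the threshold there (limma adjusted p = 0.0497), and EHMT1 no longer passed (limma adjusted p = 0.0626). The differences were 0.38 (SE 0.14) and 0.29 (SE 0.13) with the pan-neuronal level in the fit. With the oligodendrocyte level they were 0.89 (SE 0.32) and 0.39 (SE 0.17). Neither gene passed in these 2 fits, where hardly any of all genes tested did, so this says nothing particular to HDAC1 or EHMT1. HDAC1 passed in 9 and EHMT1 in 6 of the 17 fits with 1 library left out. TRIM28, the corepressor itself, was at 148 ± 19.7 and 180 ± 32.8 (0.27, SE 0.13, limma adjusted p = 0.140), and SETDB1, the methyltransferase it recruits, at 19.9 ± 2.63 and 24.5 ± 7.31 (0.22, SE 0.20). DNMT3B, a DNA methyltransferase, was at 0.672 ± 0.299 and 1.23 ± 0.340 and did not pass (limma adjusted p = 0.0605).

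**Figure D5:**
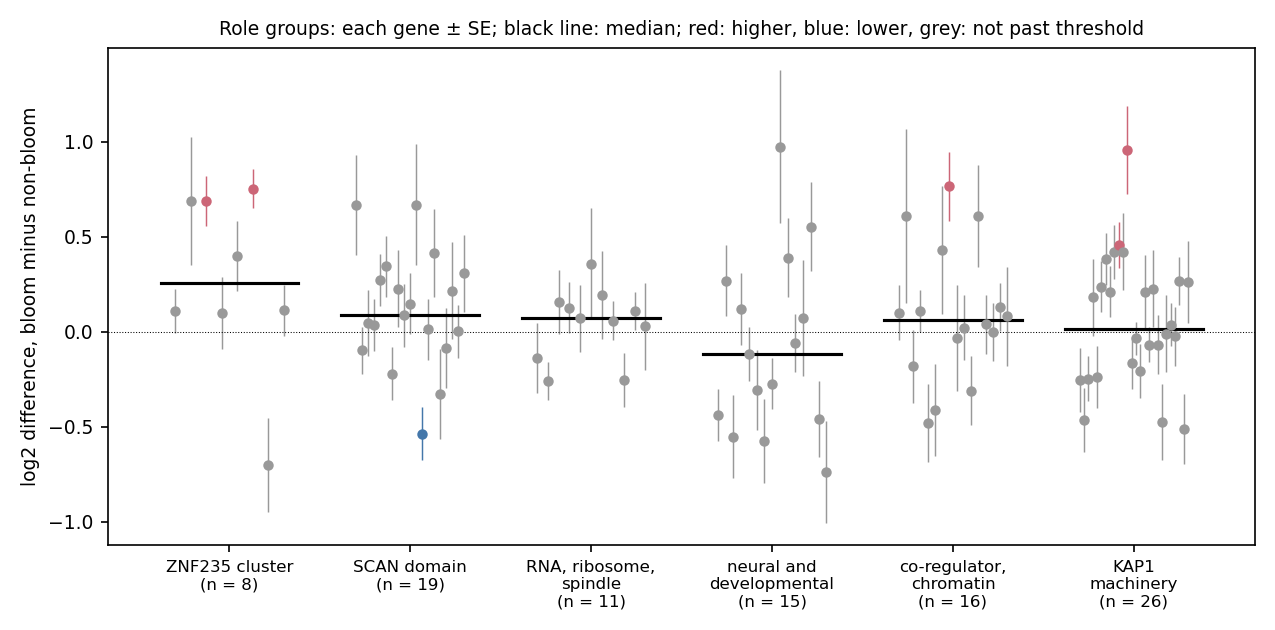
Log2 difference ± SE (y axis, bloom minus non-bloom) of each gene in 6 groups by role, with the group median as a black line; red genes were higher and blue lower past the threshold. The medians lie between -0.12 (neural and developmental) and 0.26 (ZNF235 cluster, ZNF235 included), and at most 2 genes per group passed.

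Zinc finger families named otherwise are given by their counts beside the 9.16% called among all genes tested. Of 35 ZBTB genes, whose proteins pair through a BTB domain, 2 rose and 1 fell, 8.57% (median -0.11, or 0.021 without bloom 5, 6 and 9). Of 19 ZSCAN and ZKSCAN genes none passed by limma or edgeR (3 at an unadjusted p under 0.05 by limma, 15.8% against 35.4% of all genes); the median was 0.0012, or 0.11 without the 3 libraries. Of 15 ZFP genes 1 rose and 1 fell, 13.3% (median 0.048). Of 18 genes of the C3H1 type, which bind RNA, 1 rose and 0 fell, 5.56% (median 0.055).

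ZNF358, ZNF638, ZNF106, ZNF207 and ZNF414 were named for their deposited values, which depend on transcript length as well as level, and none of the 5 passed. ZNF638, a splicing factor also tied to silencing of unintegrated DNA, was steady at 164 ± 8.70 and 178 ± 24.1 (log2 difference 0.11, SE 0.10). ZNF106, a nuclear RNA-binding protein, was at 138 ± 29.0 and 128 ± 39.9. ZNF358 ran from 135 to 269 in non-bloom and from 139 to 854 in bloom, and ZNF414 from 49.3 to 104 and from 51.4 to 441, both with bloom 9 far above the others. The steadiest member over the 17 libraries was ZNF16, whose values lay between 23.4 and 34.9 (coefficient of variation 10.4%).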

How the data were processed

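Messenger RNA libraries from 17 dolphins were compared by the season label, 8 non-bloom and 9 bloom. The deposited signal, made by the authors, is 1 value per gene and library; reads were trimmed with Trim Galore 0.6.1 and aligned with STAR 2.5.2a, per the submitters' processing notes, while no source used here names the counter, build or annotation. All nonzero values were whole multiples of 1 read (100% within 0.01), and the step matched TMM-scaled CPM, so reads were recovered. Genes were kept by filterByExpr (minimum count 10, minimum total 15; 13548 genes) and tested with limma-trend on log2(value + 1), season only, Benjamini-Hochberg over all genes; this scale understates changes of low genes. edgeR and DESeq2 were run on the recovered reads, and other settings are given below. The code was tested on simulated data. No pair of libraries matched within sampling noise (smallest chi-square per gene 17.0). Software was DESeq2 1.42.0, edgeR 4.0.16 and limma 3.58.1 under R 4.3.3. The members, lists and tests were chosen with earlier results of these data known. The rule for named genes took ZNF235, called members, the 5 with the highest mean, up to 3 per list with the smallest p and those at the edge of the rule; others are named where a short list is spelled out or at an extreme, chosen after their values were seen. Protein and promoter sequences were not used here, and KRAB domains are background knowledge.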

Additional observations from a re-analysis of the deposited data

Results flagged for a closer look

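Among 76 groups of values (38 genes in 2 seasons), 6 had 1 library whose gap to the next was large for the group's range, and chance gives about 1 in 20. Bloom 9 was the library in 3 of them. It had 854 for ZNF358 where the other bloom libraries had 139 to 302, 441 for ZNF414 (others 51.4 to 126) and 19.4 for ZNF618 (others 3.55 to 10.2). Bloom 9 also had the highest mitochondrial share and the fewest reads outside it; the part of these in the 3 values was not tested. Non-bloom 7 was high for ZNF132 at 7.24 (others 3.50 to 5.25) and for EHMT1 at 29.7 (others 20.7 to 24.6). Non-bloom 8 had 1.88 for ZNF891, where the other non-bloom libraries had 0.614 to 1.15.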

How the results depend on the processing

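Against 11 members higher in bloom, 7 members lower in bloom and 1241 of all tested genes called, DESeq2 gave 31, 12 and 3170, limma-voom with quality weights 36, 29 and 4222, and no filter 6, 1 and 560. The main fit tested 271 members among 13548 genes. The count over all genes takes both directions together, so it is no background for higher or lower members alone. Without the filter every gene with any read was tested, and fits that left libraries out were filtered anew. With the pan-neuronal level as a covariate the counts were 1, 0 and 3, with the oligodendrocyte level 0, 0 and 0, and with the mitochondrial ratio 16, 11 and 2518. Lower members numbered 2 by edgeR, 1 with upper-quartile scaling, 3 with a pseudocount of 0.1 and 0 without bloom 5, 6 and 9, where 320 genes were called in all. Leaving out each library in turn gave 2 to 17 higher, 0 to 15 lower and 61 to 2895 in all. Higher members numbered 7 or fewer without non-bloom 1, 2, 3, 5, 6, 7 or 8 or bloom 2, 5, 6 or 7, and 17 without bloom 1. Lower members numbered 4 or fewer without any single library other than bloom 1, 4 and 8, which gave 15, 10 and 11. The cause of these shifts was not tested. Robust variance, relative log expression scaling, a value of at least 1 in 8 libraries, a pseudocount of 0.5 and a member mean of at least 2 or 5 kept both member counts within 1.5 times. Among the 38 genes named by rule only ZNF385A changed sign, from 0.36 to -0.23 with the pan-neuronal covariate and to -0.12 without bloom 5, 6 and 9. Of the other genes named, ZNF16, ZNF282, ZNF398, ZNF592, ZNF687 and ZNF777 changed sign without these 3 libraries, with values of -0.027, 0.095, 0.059, 0.23, 0.030 and -0.13 there. Of the 17 called members other than ZNF235, 1 (ZNF227) passed in all 17 fits with a library left out. No paired analysis was possible because there was 1 library per dolphin and the labels state no pairing. Depth limits low members in bloom 9, where 3 reads are a value of 1.71.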
